A study of Mus musculus with 8 samples.

Results

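The nuclear genes for the subunits of the oxidative phosphorylation machinery (OXPHOS) were examined in E15.5 germ cells of control and Snf5 CKO mice. Members were taken by name from the expression tables of both sexes, as the loci whose symbol begins with Nduf and a subunit letter and number (complex I), Uqcr (complex III), Cox4 to Cox8 (complex IV) or Atp5 (ATP synthase), without pseudogene names. This gave 80 members in each table, among 24281 named loci in the female table and 23944 in the male table. They were 37 complex I, 8 complex III, 18 complex IV and 17 ATP synthase genes. In each sex 77 members reached a mean of 1 FPKM over the 4 libraries and were tested. Cox4i2, Cox6a2 and Cox8b were below that level in both sexes. Ndufa4 and Ndufa4l2 are counted with complex I by their symbols, although NDUFA4 is a complex IV subunit, and Atp5s and Atp5sl carry the Atp5 name without encoding a subunit.

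Snf5, listed under its symbol Smarcb1, encodes a subunit of SWI/SNF complexes, which remodel chromatin. The Snf5 CKO germ cells carried a floxed and a deleted Snf5 allele (Snf5fx/Δ) together with TNAP-Cre, a Cre cDNA knocked into the Alpl gene, which recombines in primordial germ cells but leaves a part of them unrecombined. As controls served a mixture of 3 genotypes, Snf5fx/+ with TNAP-Cre, Snf5fx/Δ, and Snf5fx/+, so that control cells could also carry the deleted allele or Cre. All embryos carried the Oct4-EGFP transgene, and the germ cells were sorted by its fluorescence from ovaries or testes. By the study's list, the female samples of both genotypes and the male control samples were pooled over embryos. For male Snf5 CKO the list holds 3 entries of a single mouse each, and 2 of them carry the same sample name. Whether these were joined in a library is not stated. The male Snf5 CKO libraries thus rest on few embryos, and differences between embryos can weigh on that comparison. There were 8 libraries, 2 for each sex and genotype. Smarcb1 was at 23.4 and 22.3 FPKM in female controls and at 4.24 and 2.47 FPKM in female Snf5 CKO, and at 141 and 167 against 8.73 and 10.1 FPKM in males.

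Oxidative phosphorylation takes place in the inner mitochondrial membrane. Complexes I, III and IV pass electrons from NADH to oxygen and pump protons, and the ATP synthase uses the returning protons to make ATP. Each complex combines nuclear-encoded subunits with subunits encoded by mitochondrial DNA. Several small subunits of complex IV exist as a widely expressed form and a paralog restricted to heart, muscle, lung or testis. Loci with the names of the mitochondrially encoded subunits were not among the rows of the tables, so only the nuclear share of each complex is described.

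For members whose levels moved most, the 100 bases before the RefSeq transcript start are shown, so that the promoter can be seen beside the values below. Cox7b and Cox8a had the largest rises in females, Cox7b2 the largest fall in males, and Cox6b2 rose in both sexes. The stretches lie at chrX:106015600-106015699 (plus strand), chr19:7217617-7217716, chr5:71548206-71548305 and chr7:4753095-4753194 (minus strand) of GRCm38.p6, the build of mm10, and are written 5′ to 3′. Capitals mark a GC box. The Cox7b stretch lies inside the locus given below for that gene, which starts farther upstream than the RefSeq start used here.
Cox7b: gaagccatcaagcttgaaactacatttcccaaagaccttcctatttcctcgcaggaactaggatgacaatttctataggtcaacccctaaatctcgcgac
Cox8a: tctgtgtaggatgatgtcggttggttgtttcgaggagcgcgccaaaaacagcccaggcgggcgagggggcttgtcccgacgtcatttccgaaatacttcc
Cox7b2: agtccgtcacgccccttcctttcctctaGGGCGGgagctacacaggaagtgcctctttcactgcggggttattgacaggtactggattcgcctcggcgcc
Cox6b2: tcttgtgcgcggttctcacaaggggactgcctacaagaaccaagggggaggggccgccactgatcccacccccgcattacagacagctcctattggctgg

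Of the 80 members, 66 had a RefSeq promoter window of 250 bases before to 50 bases after the start. Matches on both strands were counted for 4 motifs that are known from promoters of housekeeping and mitochondrial genes. The YY1 letters AAGATGGC were in 11 of the 66 members (16.7%), against 5.27% of the 10023 genes tested in either sex that had a window and 3.19% of all 27025 genes with one. The NRF1 letters GCGCATGC were in 9 members (13.6%), against 6.34% and 3.05%. The ETS letters CCGGAAG were in 14 members (21.2%), against 20.1% and 9.93%. The GC box GGGCGG was in 26 members (39.4%), against 68.9% and 38.2%. Of the stretches printed above, Cox7b2 held a match, and in the whole window of Cox8a an ETS match crossed the start and another lay behind it. These matches describe the letters of the windows and are no measure of binding.

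The OXPHOS genes were abundant and varied with the replicate number. Of the FPKM of named loci, they took 5.97% and 7.68% in the female control libraries (replicates 1 and 2) against 6.01% and 7.30% with Snf5 deleted. The male shares were 4.31% and 5.67% against 4.69% and 5.16%. Their summed level was 38793 and 54243 FPKM in female controls against 36457 and 53732 in female Snf5 CKO, and 27499 and 44911 against 30631 and 51817 FPKM in males. In each group replicate 2 was higher than replicate 1, and the sums of control and Snf5 CKO overlapped in both sexes. The median member was 0.49 higher in replicate 2 than in replicate 1 on the log2(FPKM + 1) scale in female controls and by 0.50 between the female Snf5 CKO libraries, with 71 of 77 members higher in each. In males it was 0.74 and 0.72 higher, with 70 and 72 of 77 members higher. Over all tested genes the same medians lay between -0.07 and -0.01. The longest annotated transcript of a member had a median of 988.5 bases (76 members with a length), against 3245 bases for all tested female genes and 3196 for male ones. The replicate number moves with the style of the raw file names in the sample labels. In males it also moves with the share of FPKM on unnamed loci. That share was 6.56% and 5.46% in the male replicate 1 libraries and 42.1% and 35.4% in the male replicate 2 libraries (control and Snf5 CKO). In females the share did not follow the number. It was 36.7% and 35.3% in control and 9.94% and 28.2% in Snf5 CKO (replicates 1 and 2), so that within replicate 1 it differed between the genotypes. The part of these differences in the replicate shift was not tested. The sample titles number the replicates and name no batch, whereas the column labels call the male replicates exp1 and exp2. Because the shift between the numbers was alike in control and Snf5 CKO, counts with the replicate number as a block are given beside those without it.

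**Figure D1:**
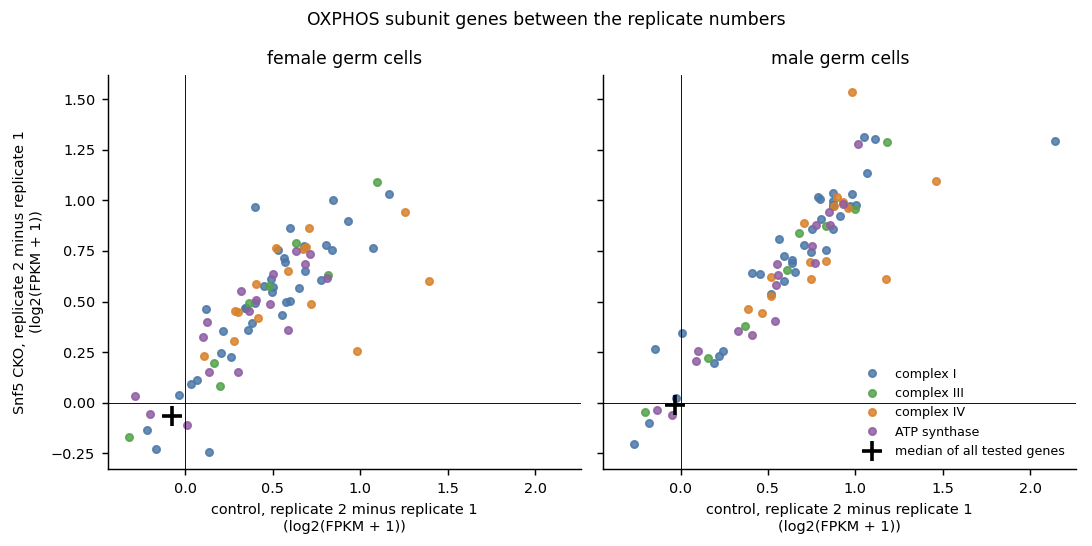
Each point is a tested OXPHOS gene, with replicate 2 minus replicate 1 on the log2(FPKM + 1) scale in control (x axis) and in Snf5 CKO (y axis), coloured by complex. Most points lie to the upper right, at medians of 0.49 and 0.50 in females and 0.74 and 0.72 in males, while the black cross for the median of all tested genes lies near 0.

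Changes went both ways in both sexes. At an adjusted p under 0.05 (limma, Benjamini-Hochberg over all tested genes), 11 members were higher and 11 lower in female Snf5 CKO. The background among all 11520 tested female genes was 27.0% higher and 34.7% lower, 61.6% in all. Without the block, the 22 called members (28.6% of 77) were thus a smaller share than that of all genes. That fit leaves the shift between replicate numbers, larger for the members than for all genes, in their spread. With the replicate block, 30 members were higher and 30 lower (77.9% of 77), beside 34.1% and 42.6% of all genes, 76.7% in all. In males 9 members were higher and 5 lower, 18.2% of 77, against 21.0% higher and 25.3% lower among 12269 genes, 46.3% in all. With the replicate block the male counts were 39 higher and 23 lower (80.5%), beside 35.1% and 41.2% of all genes, 76.4% in all. A call that also asked for a log2 fold change of at least 1 left 10 higher and 4 lower in females (background 17.3% and 21.6%) and 7 higher and 2 lower in males (14.4% and 17.5%). An unadjusted p under 0.05 was reached by 26 members in females and 19 in males, against 66.1% and 54.8% of all genes. With libraries scaled by the median of ratios, the calls were 13 higher and 8 lower in females, beside 3585 and 3502 of 11520 genes. In males they were 11 and 3, beside 2804 and 2847 of 12269 genes. With a common sum they were 14 and 11 in females (all genes 2863 and 3471) and 11 and 8 in males (1401 and 2577). With no filter on low values, 11 of the 19 named members called in females and 12 of the 13 in males lost their call. The calls that held were those of Atp5a1, Atp5c1, Cox7b, Cox8a, Cox8c, Ndufa4l2, Ndufs1 and Ndufv1 in females and Uqcrc2 in males. For the other named members this loss is not repeated at each gene below. Calls also became fewer among all genes without the filter, when 23634 female and 23360 male genes were tested. They went from 3108 higher and 3993 lower to 2136 and 2685 in females. In males they went from 2579 and 3107 to 1644 and 2660.

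The levels of control and Snf5 CKO did not overlap for 16 higher and 18 lower members in females, where the background was 36.4% higher and 45.1% lower. In males they did not overlap for 24 higher and 10 lower members, with a background of 34.6% and 40.0%. Taken within a replicate number, both pairs of libraries moved the same way for 37 members upward and 35 downward in females (background 42.0% and 50.7%), and for 44 upward and 29 downward in males (background 43.2% and 49.1%). The median log2 fold change of the members was 0.01 in females, where that of all genes was -0.13. In males it was 0.17, where that of all genes was -0.07, and it turned to -0.02 with libraries scaled to a common sum, which moved the median of all male genes to -0.24. Adding 1 to the FPKM before the logarithm makes the fold changes of low genes smaller than they are, and an exact permutation test of 1 gene has a smallest p of 0.333 with 2 against 2 libraries.

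**Figure D2:**
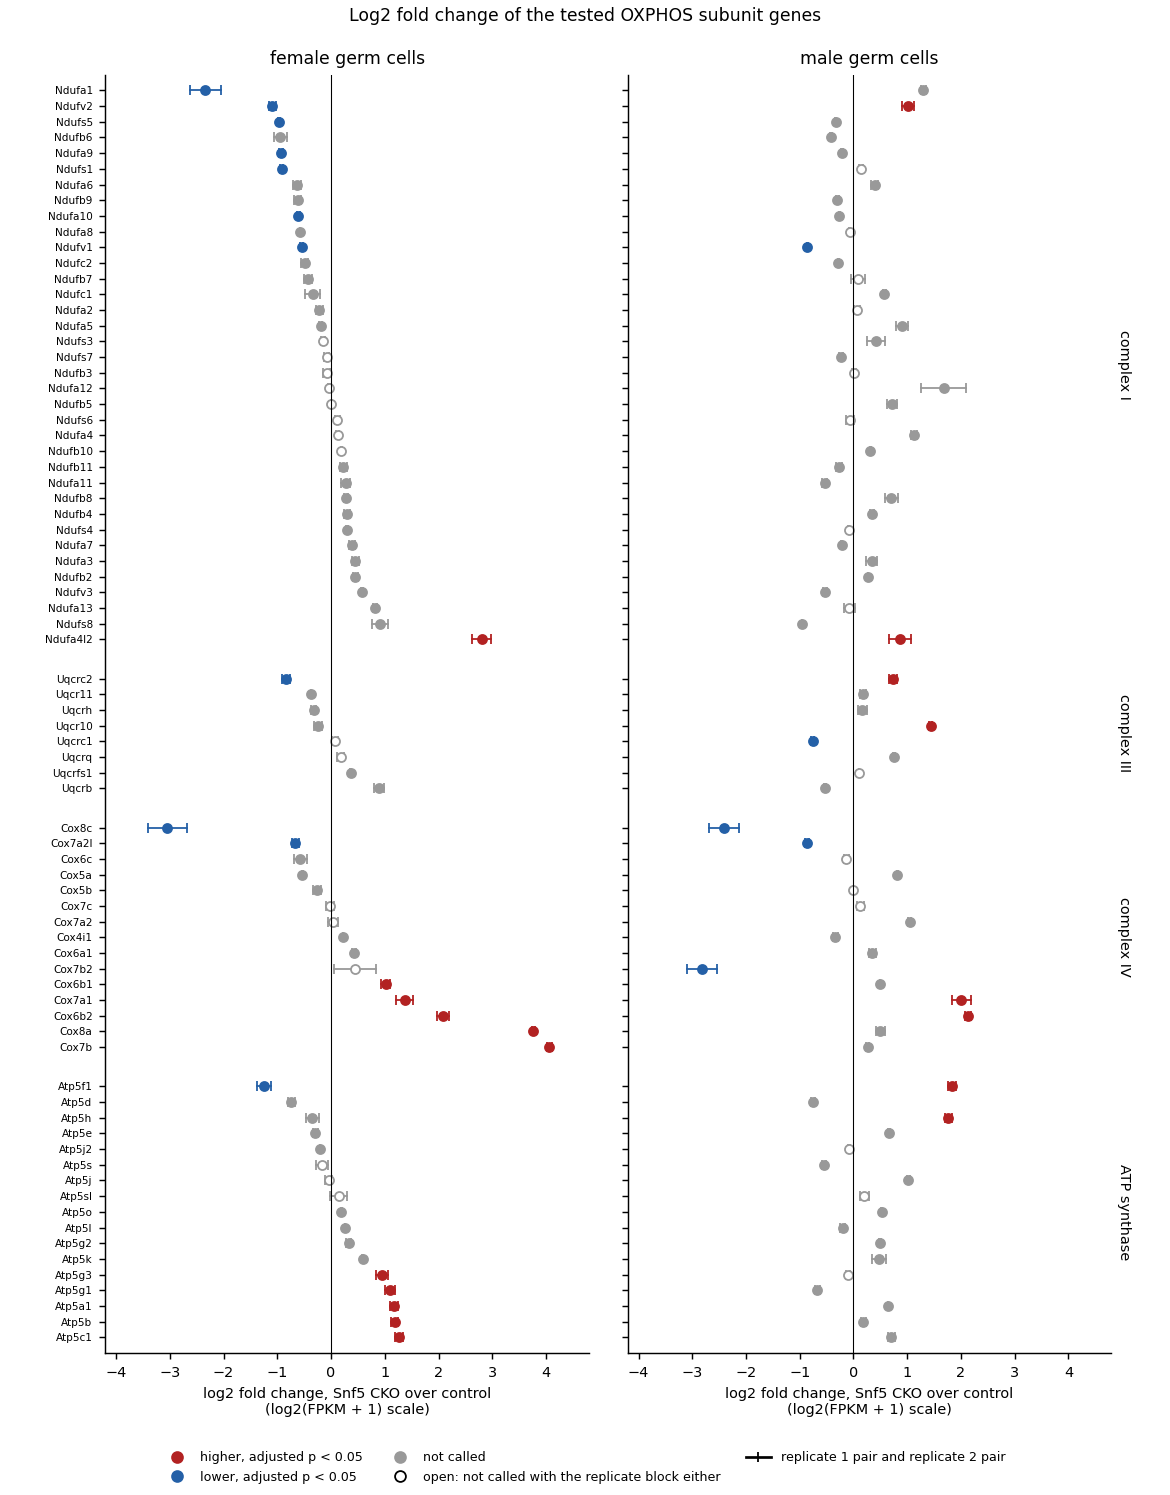
Log2 fold change of Snf5 CKO over control (x axis, log2(FPKM + 1) scale) for 76 of the 77 tested OXPHOS genes, grouped by complex and ordered by the female value, in females (left) and males (right). The line joins the replicate 1 pair and the replicate 2 pair, red and blue mark the 11 and 11 female and 8 and 5 male calls among them, and open circles mark genes called neither without nor with the replicate block.

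Counts by complex stand beside the shares of all tested genes, 27.0% higher and 34.7% lower in females and 21.0% and 25.3% in males. In females, complex I had 1 member higher (Ndufa4l2, near 0 in controls) and 7 lower of 37 (median log2 fold change -0.08), complex III 0 higher and 1 lower of 8 (-0.09), complex IV 5 higher and 2 lower of 15 tested (0.22), and the ATP synthase 5 higher and 1 lower of 17 (0.19). The medians of complexes I and III turned positive, to 0.07 and 0.07, with median-of-ratios scaling. In males the counts were 3 higher and 1 lower in complex I (0.07), 2 higher and 1 lower in complex III (0.17), 2 higher and 3 lower in complex IV (0.26), and 2 higher and 0 lower in the ATP synthase (0.48). With a common sum, the male medians of complexes I and III turned to -0.12 and -0.02. With the replicate block the female counts rose to 12 higher and 16 lower, 2 and 4, 7 and 5, and 9 and 5 for complexes I, III, IV and the ATP synthase, and the male ones to 16 and 13, 5 and 2, 8 and 4, and 10 and 4. Without the block the called share of each complex was below that of all genes in both sexes. With it, 75.7%, 75.0%, 80.0% and 82.4% of the members were called in females, beside 76.7% of all genes. In males the shares were 78.4%, 87.5%, 80.0% and 82.4%, beside 76.4% of all genes. No test of a difference between complexes was made.

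Complex I, with 37 of the 77 tested members, had 7 of the 11 female falls. Its core, the 7 nuclear subunits that carry the flavin, the iron-sulphur clusters and part of the quinone site, had 0 members higher and 3 lower in females, and 2 higher and 1 lower in males. Ndufs1, the largest iron-sulphur subunit, was at 219 and 194 FPKM in female controls and at 118 and 100 in female Snf5 CKO, a fall by 0.92 on the log2 scale (SE 0.19, limma adjusted p = 0.0059). Both control libraries were well above both Snf5 CKO libraries. Ndufv1, which binds NADH and the flavin, fell in both sexes, from 230 and 241 to 155 and 167 FPKM in females (log2 fold change -0.55, adjusted p = 0.040) and from 244 and 289 to 134 and 160 FPKM in males (-0.86, adjusted p = 0.027). Control and Snf5 CKO levels of Ndufv1 were apart in each sex, but the calls were lost without any one library, with an adjusted p of 0.14 to 0.21 in females and 0.073 to 0.18 in males. The female call of Ndufv1 was lost under both rescalings too (adjusted p = 0.081 with a common sum and 0.12 by the median of ratios).

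Ndufv2, the partner of Ndufv1, moved in opposite directions. It was at 384 and 540 FPKM in female controls against 172 and 264 in female Snf5 CKO (log2 fold change -1.09, SE 0.30, adjusted p = 0.017), and at 69.5 and 92.7 FPKM in male controls against 131 and 204 in male Snf5 CKO (1.02, SE 0.29, adjusted p = 0.040). The female call was lost without Snf5 CKO replicate 1 or control replicate 2 (adjusted p = 0.10 and 0.060), and the male call without Snf5 CKO replicate 2 or control replicate 1 (0.15 and 0.17) or with a common sum (0.080). In the male table Ndufv2 shares a locus with its neighbour Ankrd12, so the male values hold reads of both genes, whereas in the female table Ankrd12 has a locus of its own at 14.4, 11.2, 4.39 and 3.55 FPKM. Ndufs3, Ndufs7 and Ndufs8 were called in neither sex without the block. With it, Ndufs8 was higher in females (log2 fold change 0.91, adjusted p = 0.00033) and lower in males (-0.96, adjusted p = 6.7e-05), Ndufs7 lower in males (-0.24, adjusted p = 0.0069) and Ndufs3 higher in males (0.42, adjusted p = 0.0078).

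Among the 28 supernumerary subunits of complex I, which surround the core, 4 were lower in females and none was called in males (limma, 1 at an unadjusted p under 0.05). Ndufa1, an X-linked subunit of the membrane arm at chrX:37187589-37191238, was the most abundant OXPHOS gene in female controls, at 2555 and 3374 FPKM, and was at 414 and 811 FPKM in female Snf5 CKO. The log2 fold change was -2.34 (SE 0.42, adjusted p = 0.0031, or 0.094 with no filter on low values), and neither Snf5 CKO library came near the controls. In males Ndufa1 was at 61.2 and 113 FPKM in controls and 147 and 289 in Snf5 CKO (1.30, SE 0.45, adjusted p = 0.066, or 0.021 with a common sum and 4.8e-05 with the replicate block). The male groups were also apart, in the opposite direction. The other female calls among the supernumerary subunits were Ndufs5 (-0.97), Ndufa9 (-0.93) and Ndufa10 (-0.61), and in males, where none of these was called without the block, their log2 fold changes were -0.33, -0.21 and -0.26. These genes and Ndufa12 were singled out after their values were seen. Ndufa12 spread widely between male replicates, at 43.4 and 195 FPKM in controls and 189 and 465 in Snf5 CKO.

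Ndufa4, the complex IV subunit with a complex I name, was at 767 and 1083 FPKM in female controls and 821 and 1201 in female Snf5 CKO, with overlap. In males it was at 382 and 644 against 802 and 1453 FPKM (log2 fold change 1.12, SE 0.44, adjusted p = 0.094, or 6e-05 with the block). Ndufa4l2, its hypoxia-induced paralog, stayed low in both sexes. It was at 0.120 and 0.214 FPKM in female controls and 5.94 and 8.57 in female Snf5 CKO, so that it passed the filter on low values only through the Snf5 CKO libraries and its female call gives no support. In males it was at 1.45 and 1.21 against 2.87 and 3.66 FPKM, and the call was lost without Snf5 CKO replicate 2 or control replicate 2 (adjusted p = 0.063 and 0.064) and with a common sum (0.10). Ndufa4l2 shares its locus with Shmt2, which was at 3.34 and 2.72 FPKM in female controls and 31.6 and 28.8 in female Snf5 CKO, and the part of Shmt2 reads in the Ndufa4l2 values was not tested. In males Shmt2 was at 79.5, 77.2, 47.8 and 55.7 FPKM.

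Complex III had few calls. Uqcrc2, a core protein of its matrix side, fell in females from 304 and 243 to 161 and 143 FPKM (log2 fold change -0.83, SE 0.21, adjusted p = 0.013) and rose in males from 66.5 and 57.7 to 106 and 102 FPKM (0.74, SE 0.17, adjusted p = 0.023). The groups were apart in both sexes, but the male call was lost without any one of the 4 male libraries, with an adjusted p between 0.086 and 0.17, and with a common sum (0.30), and the female call without Snf5 CKO replicate 2 or control replicate 1 (0.065 and 0.090). Uqcrc1, the other core protein, was at 301, 345, 328 and 348 FPKM in females and fell in males from 439 and 490 to 253 and 295 FPKM (-0.76, adjusted p = 0.045), a call that was also lost without any one library (adjusted p = 0.16 to 0.30) and with median-of-ratios scaling (0.063). Uqcr10, a small membrane subunit, was at 220 and 392 FPKM in male controls against 589 and 1079 in male Snf5 CKO (1.44, SE 0.44, adjusted p = 0.049), and at 885 and 1373 against 707 and 1224 FPKM in females, where the groups overlapped. The adjusted p of Uqcr10 was 0.25 without male control replicate 1 and 0.13 without male Snf5 CKO replicate 2. Uqcrfs1, the Rieske iron-sulphur protein, was not called in either sex (0.36 in females and 0.10 in males), although with the block its female difference had an adjusted p of 0.0058.

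Complex IV held the largest changes. Cox7b, an X-linked small subunit at chrX:106012010-106022450, was at 18.1 and 29.8 FPKM in female controls and at 310 and 529 FPKM in female Snf5 CKO, which is 17.5-fold higher by the means. The log2 fold change was 4.06 (SE 0.33, limma adjusted p = 0.00016), and both Snf5 CKO libraries lay far above both controls. In males Cox7b was at 161 and 307 FPKM in controls and 189 and 376 in Snf5 CKO, with overlapping groups (0.26, adjusted p = 0.68, or 0.0049 with the block). Cox8a, at chr19:7215158-7217616, was at 58.7 and 88.8 FPKM in female controls and 792 and 1242 in female Snf5 CKO (3.76, SE 0.31, adjusted p = 0.00017). In males it was at 473 and 775 against 629 and 1167 FPKM (0.50, adjusted p = 0.40, or 0.0010 with the block). For both genes the female controls stood apart from the other libraries at low levels, as far as the tables, which were normalized separately, can be set side by side. Both calls held under all 13 alternatives tried, with log2 fold changes of 3.68 to 4.45 for Cox7b and 3.44 to 4.08 for Cox8a.

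**Figure D3:**
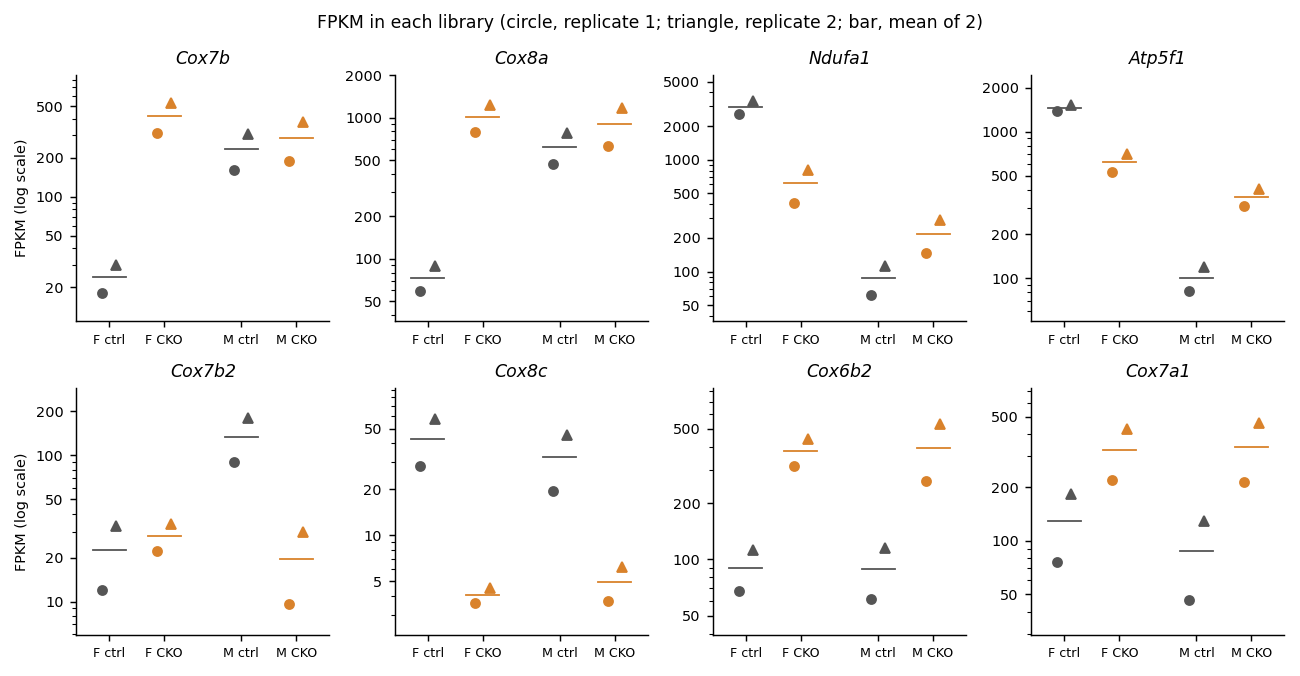
FPKM on a log scale in each of the 8 libraries for 8 OXPHOS genes, with control in grey, Snf5 CKO in orange, circles for replicate 1, triangles for replicate 2 and bars for the mean of 2. Cox7b and Cox8a are low only in female controls, Ndufa1 and Atp5f1 move toward each other between the sexes, Cox8c is low in Snf5 CKO of both sexes, and Cox6b2 and Cox7a1 are high there.

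The testis-type paralogs of complex IV moved in different directions. Cox8c, the testis form of subunit VIII at chr12:102899306-102900534, fell in both sexes. It was at 28.6 and 57.4 FPKM in female controls and 3.60 and 4.50 in female Snf5 CKO (log2 fold change -3.05, SE 0.32, adjusted p = 0.00038), and at 19.6 and 45.5 against 3.71 and 6.20 FPKM in males (-2.41, SE 0.45, adjusted p = 0.012). All 4 Snf5 CKO libraries were below all controls of their sex. Cox7b2, the germ cell paralog of Cox7b at chr5:71442823-71548205 in the male table, fell in males from 90.2 and 179 to 9.64 and 29.8 FPKM (-2.82, SE 0.59, adjusted p = 0.016). In females it was at 12.0 and 33.1 FPKM in controls and 22.2 and 34.2 in Snf5 CKO, with overlap. Cox6b2, the testis form of subunit VIb at chr7:4751792-4753094, rose in both sexes, from 67.7 and 112 to 315 and 442 FPKM in females (2.09, SE 0.30, adjusted p = 0.0012) and from 61.5 and 115 to 263 and 532 FPKM in males (2.13, SE 0.46, adjusted p = 0.018). The Snf5 CKO libraries were above the controls in each sex. These calls held with each library left out, and the calls of Cox6b2 in both sexes and of Cox7b2 and Cox8c in males were lost with no filter on low values, at adjusted p between 0.062 and 0.12.

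Cox7a1, the heart and muscle form of subunit VIIa, also rose in both sexes. It was at 76.1 and 183 FPKM in female controls and 221 and 425 in female Snf5 CKO (log2 fold change 1.37, SE 0.47, adjusted p = 0.038), and at 46.5 and 130 against 216 and 462 FPKM in males (2.01, SE 0.60, adjusted p = 0.045). Its replicates spread by more than a factor of 2 in the controls of both sexes, and without control replicate 1 the adjusted p was 0.14 in females and 0.11 in males. Cox7a2, the widely expressed form, was at 584, 773, 559 and 840 FPKM in females and at 237, 396, 497 and 805 FPKM in males (1.04, adjusted p = 0.081, or 5.6e-05 with the block). Cox7a2l, which helps to join complexes III and IV into supercomplexes, fell in both sexes, by 0.66 on the log2 scale in females (adjusted p = 0.021) and by 0.87 in males (adjusted p = 0.044), and both calls were lost without control replicate 1 or 2 or Snf5 CKO replicate 1, with an adjusted p of 0.061 to 0.15 in females and 0.074 to 0.23 in males. Both were also lost with median-of-ratios scaling (0.063 and 0.061). Cox6b1 rose in females from 434 and 530 to 829 and 1133 FPKM (1.01, adjusted p = 0.021) and was at 558, 800, 782 and 1129 FPKM in males, with overlap. The female call of Cox6b1 was lost without control replicate 1 or 2 or Snf5 CKO replicate 2 (adjusted p = 0.18, 0.062 and 0.12). Cox5a, a widely expressed subunit singled out after its values were seen, was at 1322 and 1606 FPKM in female controls against 905 and 1117 in female Snf5 CKO (-0.53, adjusted p = 0.19, or 0.00056 with the block). In males it was at 349 and 481 against 617 and 839 FPKM (0.81, adjusted p = 0.088, or 9.0e-05 with the block), so that the groups were apart in opposite directions. Cox4i1, Cox6a1 and Cox7c were not called in either sex without the block. The muscle, heart and lung forms Cox6a2, Cox8b and Cox4i2 stayed under 1 FPKM in all 8 libraries.

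The share of each paralog within its set is a ratio inside a library and is therefore not moved by the scaling of libraries or by a shift common to the set. The share of Cox8c in the summed FPKM of Cox8a, Cox8b and Cox8c was 32.7% and 39.3% in female controls and 0.452% and 0.361% in female Snf5 CKO, and 3.98% and 5.55% against 0.587% and 0.528% in males. The Snf5 CKO shares were lower in both sexes than in the controls of the same sex. The share of Cox7b2 in the sum with Cox7b was 39.8% and 52.6% in female controls and 6.70% and 6.07% in female Snf5 CKO, although the level of Cox7b2 itself overlapped, and 36.0% and 36.8% against 4.86% and 7.34% in males. The share of Cox6b2 was 13.5% and 17.5% against 27.5% and 28.1% in females and 9.94% and 12.6% against 25.1% and 32.0% in males. The share of Cox7a2l was 22.1% and 17.4% against 12.6% and 9.47% in females and 40.2% and 32.2% against 12.4% and 9.92% in males. For each of these 4 paralogs the shares of control and Snf5 CKO did not overlap in either sex. In other sets they overlapped for Cox6a2 in females (0.0289% and 0.00449% against 0% and 0.0154%) and for Cox4i2 in males. They also overlapped for Ndufa4l2 in males (0.378% and 0.188% against 0.357% and 0.251%). Levels without overlap are common among all genes, and for ratios this was not counted. The shares were not tested, and a ratio shows unequal change within a set without telling which member changed.

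**Figure D4:**
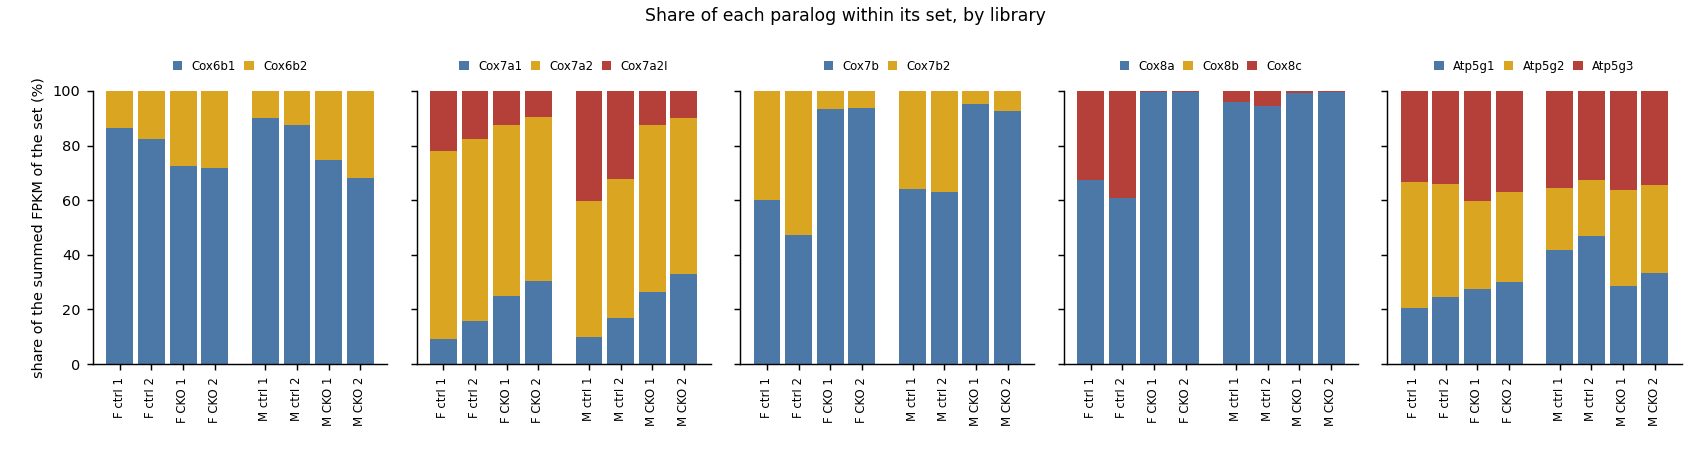
Share of each paralog (percent of the summed FPKM of its set, y axis) in each of the 8 libraries for 5 sets. The shares of Cox8c and Cox7b2 are smaller in the Snf5 CKO libraries of both sexes, those of Cox6b2 and Cox7a1 larger, and that of Atp5g1 is larger in female and smaller in male Snf5 CKO.

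In the ATP synthase, 3 of the 5 genes of the catalytic F1 part rose in females. Atp5a1 (subunit α) went from 202 and 175 to 431 and 415 FPKM (log2 fold change 1.16, SE 0.21, adjusted p = 0.0030). Atp5b (the catalytic subunit β) went from 621 and 626 to 1471 and 1362 FPKM (1.18, SE 0.28, adjusted p = 0.0098), and Atp5c1 (subunit γ, the central shaft) from 164 and 203 to 418 and 466 FPKM (1.27, SE 0.22, adjusted p = 0.0026). In all of these the controls and the Snf5 CKO libraries were far apart. The calls of Atp5a1 and Atp5c1 held under all 13 alternatives, whereas that of Atp5b was lost without female control replicate 1 or 2 or female Snf5 CKO replicate 1 (adjusted p = 0.11, 0.093 and 0.051). Atp5d and Atp5e, the small F1 subunits, were not called in females, at log2 fold changes of -0.74 and -0.29, and with the replicate block both were lower (adjusted p = 0.00024 and 0.0085). In males none of the 5 F1 genes was called (limma, 2 at an unadjusted p under 0.05). With the block Atp5a1 (0.64), Atp5b (0.18), Atp5c1 (0.71) and Atp5e (0.66) were higher and Atp5d (-0.75) lower in males. With a common sum and the block together, Atp5c1 (0.52, adjusted p = 0.047) and Atp5d (-0.94) were called, Atp5a1 (0.45) and Atp5e (0.47) were not (adjusted p = 0.086 and 0.067), and Atp5b turned to -0.0051.

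The peripheral stalk, which holds the F1 part still against the membrane part, had 2 of its 4 genes called higher in males. Atp5f1 (subunit b) was at 82.0 and 120 FPKM in male controls against 309 and 409 in male Snf5 CKO (log2 fold change 1.83, SE 0.28, adjusted p = 0.0068). Atp5h (subunit d) was at 156 and 229 against 506 and 813 FPKM in males (1.76, SE 0.35, adjusted p = 0.014). For both the male groups were far apart, and without male control replicate 1 the adjusted p of Atp5h was 0.076. Atp5j and Atp5o, the other stalk genes, had male log2 fold changes of 1.02 and 0.53 (adjusted p = 0.15 and 0.16, or 6.1e-05 and 0.00032 with the block), with groups that did not overlap. In females Atp5f1 was at 1394 and 1517 FPKM in controls and 534 and 703 in Snf5 CKO, a fall by 1.25 (SE 0.30, adjusted p = 0.011). It thus fell in females and rose in males, and the female call was lost without female control replicate 1 or 2 or female Snf5 CKO replicate 1 (adjusted p = 0.051 to 0.097). The tables give the range of a group of overlapping genes as the locus, and 16 female and 15 male members share it with another named gene. Atp5f1, at chr3:105942678-105969760 in the female table, shares it with Wdr77. Wdr77 was at 30.5, 30.9, 69.9 and 63.4 FPKM in females and 50.1, 49.2, 88.9 and 81.8 FPKM in males, higher in Snf5 CKO of both sexes.

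Of the 6 genes of the membrane part, 2 rose in females and none was called in males (limma, 0 at an unadjusted p under 0.05, and 2 higher and 2 lower with the block). Atp5g1, Atp5g2 and Atp5g3 encode the same mature subunit c, the ring that turns with the proton flow, from separate genes. Atp5g1 rose in females from 290 and 509 to 666 and 1020 FPKM (1.10, adjusted p = 0.036), and Atp5g3 from 467 and 701 to 971 and 1249 FPKM (0.94, adjusted p = 0.040). The lower Snf5 CKO library of each gene was above the higher control. The call of Atp5g1 was lost without control replicate 1 or Snf5 CKO replicate 2 (adjusted p = 0.27 and 0.098), and that of Atp5g3 without any one library (0.055 to 0.35). In males Atp5g1 was at 1043 and 1882 against 633 and 1218 FPKM, with overlap (-0.67, adjusted p = 0.32, or 0.00021 with the block). The share of Atp5g1 in the summed FPKM of the set was 20.7% and 24.6% in female controls and 27.5% and 30.2% in female Snf5 CKO, and 41.9% and 47.0% against 28.5% and 33.5% in males.

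Comparing calls between the sexes, 3 members were higher in both (Cox6b2, Cox7a1 and Ndufa4l2), 3 lower in both (Cox7a2l, Cox8c and Ndufv1), and 3 lower in females and higher in males (Atp5f1, Ndufv2 and Uqcrc2). Of these, Ndufa4l2 was near 0 in female controls and shares its locus with Shmt2. A further 8 were called higher and 5 lower in females only, 3 higher and 2 lower in males only, and 50 of 77 in neither. A call in one sex alone does not show that the sexes differ, since no test between the tables was made. With the replicate block 17 members were higher in both sexes, 10 lower in both, 13 lower in females and higher in males, 9 the reverse, and 4 called in neither. Joint calls over both sexes were not counted among all genes. Of all tested genes 61.6% were called in females and 46.3% in males, or 76.7% and 76.4% with the block. The joint counts are therefore not read as particular to OXPHOS genes.

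Set side by side, although the tables were normalized separately, female and male levels of the OXPHOS genes were farther apart in control than in Snf5 CKO. The median absolute difference between female and male log2(FPKM + 1) was 0.74 in controls and 0.24 in Snf5 CKO, and it was smaller in Snf5 CKO for 65 of 77 members (84.4%). Among all 10463 genes tested in both tables it went from 0.91 to 0.35 and was smaller for 77.8%, so the OXPHOS genes are near the background in this. In controls 9 members differed by at least 2 on the log2 scale, and in Snf5 CKO 0 did. Female minus male was 5.13 for Ndufa1 in controls and 1.49 in Snf5 CKO, 3.86 and 0.78 for Atp5f1, -3.20 and 0.60 for Cox7b, and -3.05 and 0.21 for Cox8a. These differences are a description without a test.

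**Figure D5:**
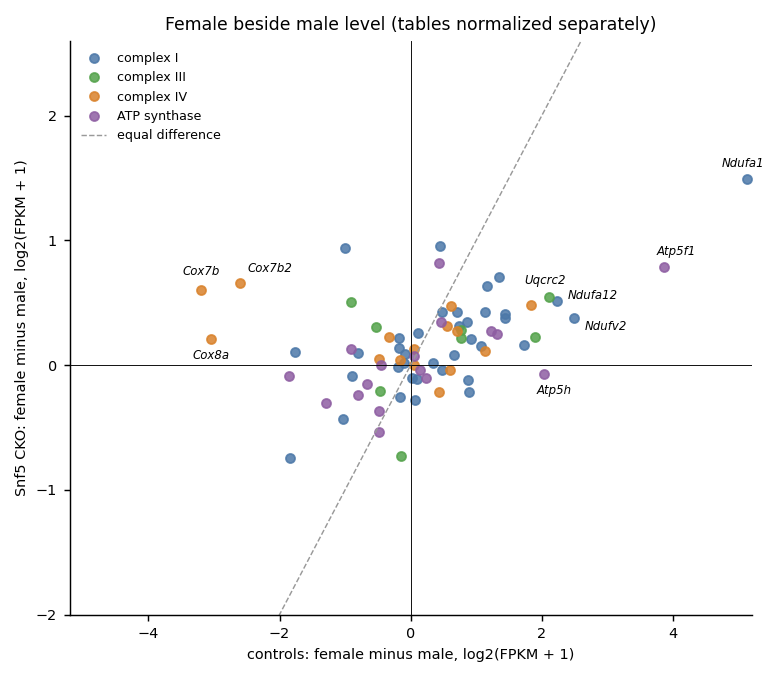
Female minus male log2(FPKM + 1) of each tested OXPHOS gene in controls (x axis) and in Snf5 CKO (y axis), each the mean over replicates 1 and 2, coloured by complex, with the 9 genes that differ by at least 2 in controls named. The points spread from -3.20 to 5.13 along the x axis and lie closer to 0 along the y axis, and the dashed line marks equal differences.

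The lists of related mitochondrial genes changed in both directions too. Of the carriers that bring ADP, ATP and phosphate across the inner membrane, Slc25a5, an X-linked ADP/ATP carrier, was at 17.4 and 26.6 FPKM in female controls and 377 and 505 in female Snf5 CKO (log2 fold change 4.28, SE 0.26, adjusted p = 9.7e-05), and at 115 and 166 against 271 and 357 FPKM in males (1.16, adjusted p = 0.024). The female controls were again the low group. Slc25a4, its heart and muscle paralog, rose in females from 101 and 111 to 380 and 428 FPKM and in males from 341 and 424 to 1101 and 1340 FPKM (adjusted p = 0.00033 and 0.0095). Slc25a3, the phosphate carrier, rose in females (1.54, adjusted p = 0.00074) and was at 0.16 in males, which was called with the block (adjusted p = 0.027) and not without it (0.62). Cycs, the cytochrome c gene, was not called without the block (0.57 in females and -0.55 in males) and with it was higher in females and lower in males (adjusted p = 0.0013 and 0.0017). In complex II, Sdhc fell in both sexes (-1.26 in females and -0.96 in males), Sdhb fell in females (-1.10), and Sdhd rose in males (0.93). With the block, complex II had 1 higher and 2 lower of 4 in females and 1 higher and 3 lower in males.

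Of the assembly factors, 3 of 13 tested for complex I were higher and 3 lower in females and 4 higher and 2 lower in males. For complex III it was 2 and 2 of 6 in females and 1 and 1 of 5 in males, for complex IV 5 and 3 of 18 in females and 5 and 0 of 18 in males, and for the ATP synthase 0 and 2 of 3 in females and 2 and 0 of 3 in males. With the block the female counts were 5 higher and 5 lower for complex I, 2 and 3 for complex III, 7 and 8 for complex IV and 0 and 2 for the ATP synthase, and the male ones 6 and 4, 2 and 1, 12 and 4, and 3 and 0. Beside these, and the counts of the lists that follow, stand the shares of all genes given above, 27.0% higher and 34.7% lower in females and 21.0% and 25.3% in males, or 34.1% and 42.6% and 35.1% and 41.2% with the block. Cox20 rose in both sexes, from 12.0 and 19.0 to 57.8 and 95.1 FPKM in females and from 15.1 and 29.2 to 64.8 and 143 FPKM in males. Ecsit fell from 169 and 167 to 32.9 and 38.1 FPKM in females. Atpaf2, which helps to assemble F1, fell by 1.23 on the log2 scale in females and rose by 1.19 in males. Of 12 TCA cycle genes, 5 rose and 3 fell in females, among them Mdh2 from 126 and 117 to 520 and 490 FPKM and Cs, citrate synthase, from 354 and 343 to 104 and 98.1 FPKM, and 2 rose and 1 fell in males. With the block the TCA cycle counts stayed at 5 and 3 in females and went to 3 higher and 7 lower in males.

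Of the regulators of mitochondrial genes, 10 of 13 were tested, with 2 higher and 3 lower in females and 2 higher and 1 lower in males, or 3 and 3 and 6 and 3 with the block. Ppargc1a and Ppargc1b, the coactivators of mitochondrial biogenesis, were under 1 FPKM in all 8 libraries. Nrf1 was not called without the block (0.11 in females and 0.61 in males, where the adjusted p was 0.00069 with it), and Gabpa and Tfam, the mitochondrial transcription and packaging factor, rose in males (0.91 and 0.73, adjusted p = 0.032 and 0.022) and had female log2 fold changes of -0.20 and 0.34 (adjusted p = 0.10 and 0.042 with the block). Esrra rose in females (0.77, adjusted p = 0.010) at under 10 FPKM. Polrmt, the mitochondrial RNA polymerase, fell in both sexes, by 1.75 on the log2 scale in females and by 0.66 in males, and in females Pprc1 rose (1.42) while Tfb1m and Tfb2m fell (-0.87 and -0.92). The inhibitor of the ATP synthase, Atpif1, was called in neither sex (0.96 in females and 0.14 in males, adjusted p = 0.00081 and 0.16 with the block).

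Levels in a sorted population cannot tell fewer cells of a type from less RNA per cell, and OXPHOS genes are used by all cell types. The summed level of 6 germ cell markers was 1819 and 1841 FPKM in female controls against 1586 and 1547 in female Snf5 CKO, and 3127 and 3239 against 2220 and 2072 FPKM in males. The germ cell markers were thus abundant in all libraries. Of the 6, 3 were called higher and 1 lower in females, and 1 higher and 3 lower in males. Among 9 Sertoli cell markers the sum was 13.4 and 19.0 against 38.1 and 40.3 FPKM in females, with Sox9, Amh and Dhh under 1 FPKM in all female libraries, and 150 and 110 against 576 and 699 FPKM in males, where all 9 were higher in Snf5 CKO. The sum of 9 pre-granulosa markers, which include Gata4, Wt1 and Amhr2 of the Sertoli list, was 9.82 and 13.7 against 38.6 and 35.6 FPKM in females, all 9 higher in Snf5 CKO, and 24.3 and 19.6 against 63.4 and 62.6 FPKM in males. In males Foxl2 and Wnt4 were under 1 FPKM in all libraries, and of 6 tested markers 4 were higher and 1 lower. Leydig cell markers summed to 4.74 and 4.89 against 12.0 and 11.8 FPKM in females and 85.7 and 58.2 against 19.2 and 15.1 FPKM in males. Cyp11a1, Cyp17a1 and Star were under 1 FPKM in all female libraries. Stromal markers summed to between 2.46 and 21.2 FPKM and were lower in the Snf5 CKO libraries of both sexes, and those of blood and endothelium lay between 23.8 and 99.7 FPKM, with Ptprc, Cdh5 and Kdr under 1 FPKM throughout. The part of these marker differences in the OXPHOS values was not tested.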

How the data were processed

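RNA-seq was made from sorted E15.5 germ cells with SMART-Seq v4 and Nextera XT, which do not mark the strand, in 2 libraries per sex and genotype. The authors mapped the reads to mm10 with TopHat and deposited FPKM values per locus from Cufflinks and Cuffdiff in 1 table per sex, normalized separately. The submitters' notes name TopHat2 2.2.1 and Cuffdiff 2.1.1, and the annotation release is not given in the sources used here. FPKM keeps no counts, so depth is unknown and no counting interval could be given, and without strand the reads of overlapping genes cannot be told apart. A further 16 columns of confidence bounds were not used. Locus starts were counted from 0, and 1 was added.

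Each sex was tested alone on log2(FPKM + 1) for named loci with a mean of at least 1 FPKM, with limma 3.58.1 in R 4.3.3 (eBayes with trend, Benjamini-Hochberg over all tested genes, threshold 0.05). The fit was also run on simulated data with independent noise and no shift between replicate numbers, so that run does not cover the shift. Members, gene lists and tests were chosen with earlier results of these data known. The genes named were the most abundant, most changed, core, paralog and merged members, the called related genes and the regulators, and any singled out otherwise is said to be. The values of 1 member, which stays in the counts, are not reported here. The study's methods call the replicates biological duplicates and list the number of mice behind each. The sample titles name no batch. Column labels call the male replicates exp1 and exp2 and only number the female ones, without explaining the terms. The replicate block thus follows these labels in males, and in females the replicate number and the values. The paper names 2 sequencers and 2 read lengths without saying which library had which. Replicate 2 minus replicate 1 correlated between control and Snf5 CKO over genes at 0.50 in females and 0.61 in males, and over members at 0.81 and 0.90. Alternatives lowered the pseudocount to 0.1, dropped the filter or raised it to 5 FPKM, and used a common sum, median-of-ratios scaling, the replicate block, no trend, loci of 1 gene name, each library left out, a call that also asks for a log2 fold change of 1, and, chosen after seeing the data, a common sum with the block. Promoter windows came from RefSeq (GRCm38.p6). Figures were drawn with matplotlib 3.10.9.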

Additional observations from a re-analysis of the deposited data

Results flagged for a closer look

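In 6 members all libraries of one sex moved one way and all libraries of the other sex the opposite way, without overlap of control and Snf5 CKO in either sex. The log2 fold changes were -2.34 in females and 1.30 in males for Ndufa1, -1.25 and 1.83 for Atp5f1, -1.09 and 1.02 for Ndufv2, -0.83 and 0.74 for Uqcrc2, -0.53 and 0.81 for Cox5a, and -0.16 and 0.42 for Ndufs3. The difference between the sexes was not tested, because the tables were normalized separately. Groups without overlap are common among all tested genes, at 36.4% higher and 45.1% lower in females and 34.6% and 40.0% in males. The share of all genes apart in opposite directions was not counted, so the 6 members are not read as particular to OXPHOS genes. The male value of Ndufv2 includes reads of Ankrd12, and the female value of Ndufs3 turned to 0.0023 with median-of-ratios scaling.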

How the results depend on the processing

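Of the named members called in the comparison without the block, 19 in females and 13 in males, all kept their direction under each of up to 13 alternatives, and 7 in females and 0 in males kept their call under all of them (6 in females without Ndufa4l2, which was near 0 in controls). With no filter on low values 5 members were higher and 5 lower in females, beside 2136 and 2685 of 23634 genes. In males 4 were higher and 0 lower (limma, 5 lower at an unadjusted p under 0.05), beside 1644 and 2660 of 23360 genes. With the replicate block, 30 were higher and 30 lower in females and 39 and 23 in males. With a common sum and the block together there were 28 and 25 in females, beside 3927 and 4744 of 11520 genes. In males there were 20 and 15, beside 2965 and 4925 of 12269 genes. A common sum alone gave 8 lower members in males, and median-of-ratios scaling 3. When a call also asked for a log2 fold change of at least 1, there were 4 lower in females and 2 lower in males. The calls among all genes with the block, with each scaling and with this call are given above. Leaving out 1 library, where the lone library of an arm is assumed to vary like the others, gave 6 to 12 higher and 5 to 11 lower in females and 4 to 11 higher and 2 to 4 lower in males.

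The median log2 fold change of the members was 0.16 in females and 0.26 in males with median-of-ratios scaling, -0.015 in males with a common sum with or without the block, and -0.19 to 0.21 in females and -0.18 to 0.59 in males without single libraries. Uncalled genes changed sign. With median-of-ratios scaling the female values were 0.074 for Ndufs7, 0.14 for Cox7c and 0.0023 for Ndufs3. With a common sum, with or without the block, they were 0.00062 for female Cox7c and, in males, -0.047 for Ndufs1, -0.0051 for Atp5b, -0.085 for Uqcrfs1 and -0.062 for Cox7c. Without single libraries the female values ranged from -0.33 to 0.16 for Ndufs7, -0.92 to 0.17 for Uqcr11, -0.24 to 0.20 for Cox7c, -0.25 to 1.14 for Cox7b2, -0.55 to 0.14 for Atp5j2, -0.15 to 0.40 for Ndufa4, -0.030 to 0.17 for Uqcrc1 and -0.26 to 0.32 for Cox7a2. The male values ranged from -0.59 to 0.12 for Ndufs7, -0.086 to 0.29 for Uqcrfs1, -0.25 to 0.50 for Cox7c, -0.68 to 0.24 for Ndufa7, -0.41 to 0.22 for Atp5g3, -0.064 to 0.77 for Cox6a1 and -0.23 to 0.76 for Cox7b. The causes of these changes were not tested.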
